A study of Mus musculus with 3 samples.

Results

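Sebaceous glands are holocrine glands attached to the hair follicle. Their cells, the sebocytes, fill with lipid droplets and release them as sebum when the cell bursts, and in mice this sebum is rich in wax esters, sterol esters and triglycerides. Wax esters are built by desaturating and elongating fatty acids, reducing a part of them to fatty alcohols and joining both. The genes described here were given by name as 10 sebum and wax ester genes, chosen with earlier results of these data known. They are the desaturases Scd1, Scd3 and Fads2, the elongase Elovl3, the fatty acyl-CoA reductase Far2 and the acyltransferases Awat1, Awat2 and Dgat2l6. The sterol O-acyltransferase Soat1 and the melanocortin receptor Mc5r are also among them. The platform annotation used here names a probe set for 6 of the 10 genes, and these 6 genes have 11 of the 45037 probe sets used. For Awat1, Awat2, Dgat2l6 and Soat1 no probe set is named here, and they were not analysed.

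The arrays were hybridized with pooled RNA from the back skin of male mice, 1 array per group. The WT pool is from C57BL/6J mice (group of 5) on an AIN-93-based diet, the KO pool from interleukin-10 knockout mice (group of 7) on the same diet, and the KOE pool from interleukin-10 knockout mice (group of 6) on a diet with 8% powdered eggshell membrane (pESM). By the diet composition in the paper, the pESM diet also held less casein and less β-corn starch than the control diet. Mice were 4 weeks old when the feeding began, and feeding went on for 28 weeks. The dermal white adipose tissue was removed before RNA was extracted, and the sources used here do not say which mice made up a pool. The knockout mice descended from B6.129P2 males with the tm1Cgn allele and C57BL/6J females, and nothing says that WT mice were their littermates. The deposited value is a signal intensity on a linear scale, scaled to a trimmed mean of 500 on each array, and 18193 genes have a probe set with a single gene name. The cut-off used below is a ratio of 1.5 or more in either direction with a signal of 40 or more in one or both of the arrays compared. Since every group has a single array, there is no replicate check or test across mice, and the values describe these pools.

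The signal of Il10 itself, at its probe set, was 17.0 (WT), 679.9 (KO) and 401 (KOE). It was not known here whether this probe set lies in the altered part of the allele, so it does not check the labels. Technical spread was read from genes with several probe sets, whose log2 fold changes for KO vs. WT varied around the gene's mean with an SD of 0.36 (6178 genes). This SD was 0.49 at mean signals of 40 to 200, 0.30 at 200 to 1000 and 0.16 at 1000 and more. In whole skin, fewer cells of a type and less RNA per cell cannot be told apart.

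Markers of sebocytes that are not among the 10 genes were read first. All 6 had signals above 40 on each array. Of the 45037 probe sets, 30769 (WT), 29390 (KO) and 31298 (KOE) reached 40, so this alone does not show that the skin held the gland. For Krt79, a keratin of the sebaceous duct and upper follicle, the signals in WT, KO and KOE were 16790, 16770 and 20125. Mgst1, a microsomal glutathione transferase, had 19302, 21205 and 18169, and Cidea, a protein of the lipid droplet, had 5970, 6824 and 5902. Pparg, the nuclear receptor that drives sebocyte differentiation, had 384, 442 and 411. Plin2, a coat protein of lipid droplets, was the single marker past the cut-off in KO vs. WT, with 7805 in WT and 12551 in KO. After scaling to a common median or quantile normalization 1 marker was higher past it, and after cyclic loess normalization 0 were. The summed signal of the 6 markers was 54535 in WT, 62413 in KO and 59099 in KOE. Cidea and Elovl3 are also genes of brown fat, whose defining marker Ucp1 was under 40 on each array, with 2.35, 1.59 and 3.02. The part of fat cells in the marker signals was not tested.

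The RefSeq promoter table (GRCm38.p6) holds a window of 250 bases before to 50 bases after the start for 7 of the 10 genes, in 8 windows. Those of Fads2, Far2 and Scd3 are shown, since these are the only measured genes with a window. They lie at chr19:10101454-10101753 on the minus strand for Fads2, chr6:148047166-148047465 on the plus strand for Far2 and chr19:44203038-44203337 on the plus strand for Scd3. The windows were searched on both strands for CCAAT, TCACNCCAC (a form of the sterol regulatory element), AGGTCA (bound by nuclear receptors), TATAAA and GGGCGG (a GC box), and capitals mark a match.
Fads2: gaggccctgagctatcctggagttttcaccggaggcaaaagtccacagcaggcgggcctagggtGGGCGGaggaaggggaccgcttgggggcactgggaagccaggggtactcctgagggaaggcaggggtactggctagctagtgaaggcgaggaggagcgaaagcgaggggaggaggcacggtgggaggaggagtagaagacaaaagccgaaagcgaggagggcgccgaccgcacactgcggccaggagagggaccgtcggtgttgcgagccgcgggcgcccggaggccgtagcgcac
Far2: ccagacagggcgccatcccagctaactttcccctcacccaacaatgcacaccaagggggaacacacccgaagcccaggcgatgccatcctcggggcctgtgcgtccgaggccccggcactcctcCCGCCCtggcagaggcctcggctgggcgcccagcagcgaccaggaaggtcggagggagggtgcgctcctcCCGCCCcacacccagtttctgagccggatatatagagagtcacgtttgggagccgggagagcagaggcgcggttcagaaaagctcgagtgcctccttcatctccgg
Scd3: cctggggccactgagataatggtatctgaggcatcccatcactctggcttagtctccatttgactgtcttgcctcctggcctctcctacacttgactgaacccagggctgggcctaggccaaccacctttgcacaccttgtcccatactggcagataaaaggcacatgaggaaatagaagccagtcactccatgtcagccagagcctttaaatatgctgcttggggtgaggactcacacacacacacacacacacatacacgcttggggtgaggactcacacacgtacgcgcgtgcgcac

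Of the 5 motifs, GGGCGG alone was found in these windows, once in Fads2 with its first base at −186 from the start, and in Far2 at −126 and −56 on the opposite strand, where it reads CCGCCC. It is in 35.7% of 32851 RefSeq windows of this length. The Scd3 window held none of the 5 motifs. GC content was 67% for Fads2, 66% for Far2 and 54% for Scd3, against a median of 52.7% over all windows. A match describes letters only.

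In KO compared with WT, Fads2 was past the cut-off at its strongest probe set, and the other measured genes were within it at theirs. Of the 6 measured genes, 1 was past the cut-off, and it was lower, against 25.3% of the 14483 genes with a signal of 40 or more in one or both arrays (14.4% lower and 10.9% higher). The median log2 fold change of the 6 genes was 0.15, and that of all these genes was 0.01. Scaling the arrays to a common median adds 0.27 to each log2 fold change of KO vs. WT, and of all genes past the cut-off 43.0% were higher as deposited, 57.6% after quantile normalization and 72.5% after median scaling. The median of the 6 genes was 0.42 after median scaling and −0.00 after cyclic loess normalization.

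Fads2, the delta-6 desaturase that acts on polyunsaturated fatty acids and also on palmitate, was the exception. At its strongest probe set, 1419031_at, WT had a signal of 327, KO of 87.9 and KOE of 169.6, which makes KO 3.72-fold lower than WT. At 1449325_at the signal was 201, 91.8 and 97.4, or 2.19-fold lower in KO. At the weakest, 1443838_x_at, it was 70.7, 4.41 and 39.7, of which the last 2 are under 40. All 3 probe sets were thus highest in WT and past the cut-off in KO vs. WT, while the size of the difference varied with the probe set. The log2 fold change was −1.90 at the strongest probe set and −2.34 when all probe sets of the gene were averaged, with −4.00 at the weakest probe set entering that mean.

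Scd1 and Scd3, stearoyl-CoA desaturases that make monounsaturated fatty acids and of which Scd1 is needed for normal sebaceous glands, were not lower in KO. Scd1 gave 24547.5 in WT, 28790.5 in KO and 27076 in KOE at 1415964_at, a 1.17-fold ratio of KO to WT. At its other probe set, 1415965_at, the signal was 2236, 4801 and 3017, a ratio of 2.15. Both probe sets were lowest in WT and highest in KO, but only the weaker was past the cut-off, and the log2 fold changes of 0.23 and 1.10 lie further apart than the SD of 0.16 between probe sets at such signals. The stronger probe set reached 71.3% of the highest signal on the KO array. Whether it was near its upper limit was not tested. Scd3 had 7161, 7889 and 10243 at 1450956_at and 3053, 3392 and 4824 at 1423366_at, so the ratio of KO to WT was 1.10 and 1.11, and after cyclic loess normalization it turned to a log2 fold change of −0.01. Scd1 and Scd3 are similar in sequence, and how far their probe sets share signal was not tested.

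Elovl3, which elongates saturated and monounsaturated fatty acids in sebaceous glands, gave 3858 in WT, 5412 in KO and 3681 in KOE. It was 1.40-fold higher in KO than in WT, just under the cut-off, and its log2 fold change was 0.49, or 0.76 and past the cut-off after median scaling. Far2, which makes the fatty alcohols of wax esters, had 6193, 6899 and 7319 at 1455889_at and 1842, 1802 and 2279 at 1435621_at. Both its probe sets differed by less than the cut-off, with ratios of KO to WT of 1.11 and 0.98. Mc5r, a melanocortin receptor through which sebum output is controlled, had 366, 255 and 376 and was 1.43-fold lower in KO, also under the cut-off. In all, 4 of the 11 probe sets were past the cut-off in KO vs. WT, 3 of Fads2 and 1 of Scd1, against 30.8% of all probe sets (20.2% lower and 10.6% higher).

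**Figure D1:**
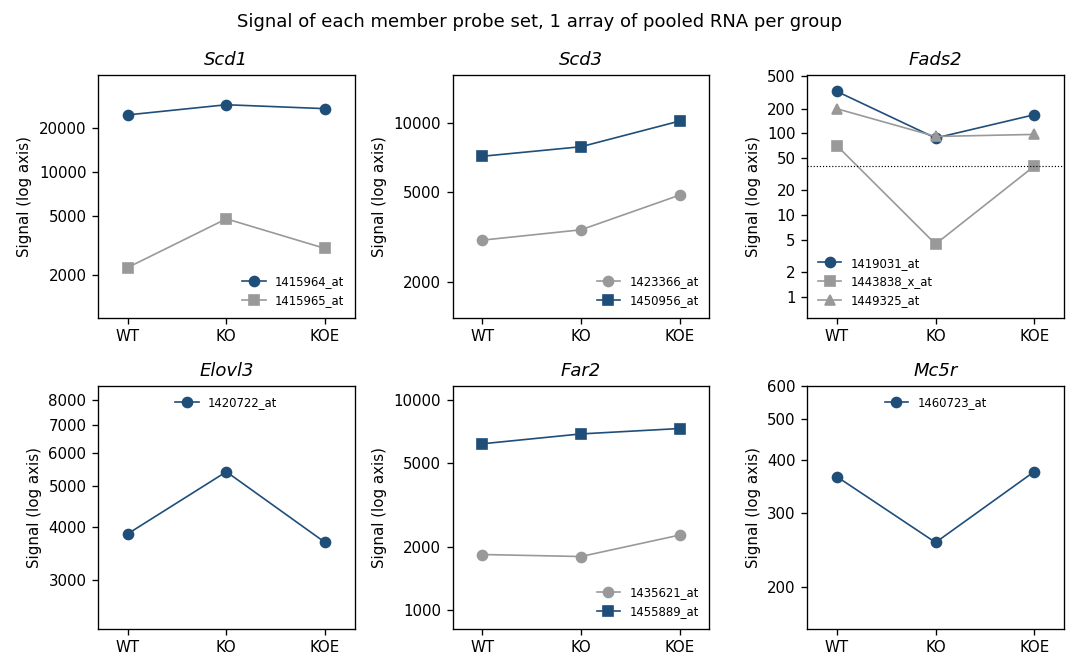
Signal of each probe set of the 6 measured genes in WT, KO and KOE, on log axes whose range differs by panel, with 1 array of pooled RNA per group. Dark blue marks the strongest probe set of a gene, grey the others, and the dotted line in the Fads2 panel a signal of 40. All 3 Fads2 probe sets are highest in WT, while both Scd1 probe sets and Elovl3 are highest in KO.

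In KOE compared with KO, which differ by the pESM diet, Fads2 was again the single gene past the cut-off. KOE exceeded KO 1.93-fold at its strongest probe set and was 1.06 times KO at 1449325_at. Of the 6 genes, 1 was thus past the cut-off, against 16% of 14579 genes (10.7% higher and 5.27% lower). The median log2 fold change of the 6 genes was 0.23, and that of all these genes was 0.02. Median scaling takes 0.16 from each log2 fold change of this comparison, for a shift of −0.16, which left the median of the 6 genes at 0.07.

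The other genes differed less, in both directions. Elovl3 was 1.47-fold lower in KOE than in KO, close to the cut-off, and past it after median scaling with a log2 fold change of −0.72. Its signal in KOE was 0.954-fold that in WT. Mc5r in KOE was 1.47-fold higher than in KO and 1.03-fold that in WT. Scd3 was 1.30-fold higher at its stronger and 1.42-fold higher at its weaker probe set, and KOE was the highest of the 3 arrays at both. Scd1 was 0.940-fold that in KO at the stronger probe set and 1.59-fold lower at the weaker, which is past the cut-off. Far2 was 1.06- and 1.26-fold that in KO, and the first of these turned to a log2 fold change of −0.07 after median scaling. Of the 11 probe sets, 1 of Fads2 was higher and 1 of Scd1 was lower past the cut-off, against 20.4% of all probe sets (14.5% higher and 5.93% lower). At the strongest probe sets, 4 of 6 genes lay above 0 and 2 below it. Both comparisons use the single KO array, so its noise turns them in opposite directions.

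In KOE compared with WT, Fads2 was lower, 1.93-fold at its strongest probe set, 2.06-fold at 1449325_at and 1.78-fold at 1443838_x_at. Of the 6 genes, 1 was past the cut-off, against 22.6% of 14760 genes (10.4% lower and 12.3% higher), and the median log2 fold change was 0.09 beside 0.05 for all these genes. Scd3 was 1.43-fold higher at its stronger and 1.58-fold higher at its weaker probe set. Of the 11 probe sets, 4 were past the cut-off, 3 of Fads2 and 1 of Scd3, against 27.7% of all probe sets (14.5% lower and 13.2% higher). At its stronger probe set Scd3 was under the cut-off as deposited and past it after median scaling, with a log2 fold change of 0.63. The order of the pools differed between genes. Scd3 and Far2 were lowest in WT and highest in KOE, Scd1 was lowest in WT and highest in KO, Elovl3 was lowest in KOE and highest in KO, and Fads2 and Mc5r were lowest in KO. The ratio of the highest to the lowest pool was 1.17 for Scd1, 1.18 for Far2, 1.43 for Scd3, 1.47 for Elovl3 and Mc5r and 3.72 for Fads2, so that neighbours in these orders were within the cut-off for each gene but Fads2.

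Scd1, Scd2, Scd3 and Scd4 are neighbours on chromosome 19 in the RefSeq annotation, with no other protein-coding gene between them, and so are Fads1, Fads2 and Fads3. These neighbours differed between the pools in different ways. Scd2, a desaturase of many tissues that was not among the 10 genes, gave 7515 in WT, 3807 in KO and 5161 in KOE, a log2 fold change of −0.98 for KO vs. WT, with −1.19 and −0.52 at its other probe sets. Its neighbours Scd1 and Scd3 were above 0 at each probe set. Fads3, a desaturase related to Fads2, had 922, 236 and 103, and was lower in KO than in WT at all 3 probe sets, with log2 fold changes of −1.96, −1.99 and −4.17, the last of them at a signal of 13.4 in KO, under 40. Fads1, the delta-5 desaturase that acts after Fads2, had 885, 899 and 855, a ratio of KO to WT of 1.02, and 128, 101 and 132.5 at its other probe set, a log2 fold change of −0.34. In KOE vs. KO, Fads3 had log2 fold changes of −1.20 and −0.40 at the probe sets with 40 or more in one or both arrays, and Fads2 had 0.95 and 0.08. Each gene was thus past the cut-off at 1 probe set, Fads3 as lower and Fads2 as higher.

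**Figure D2:**
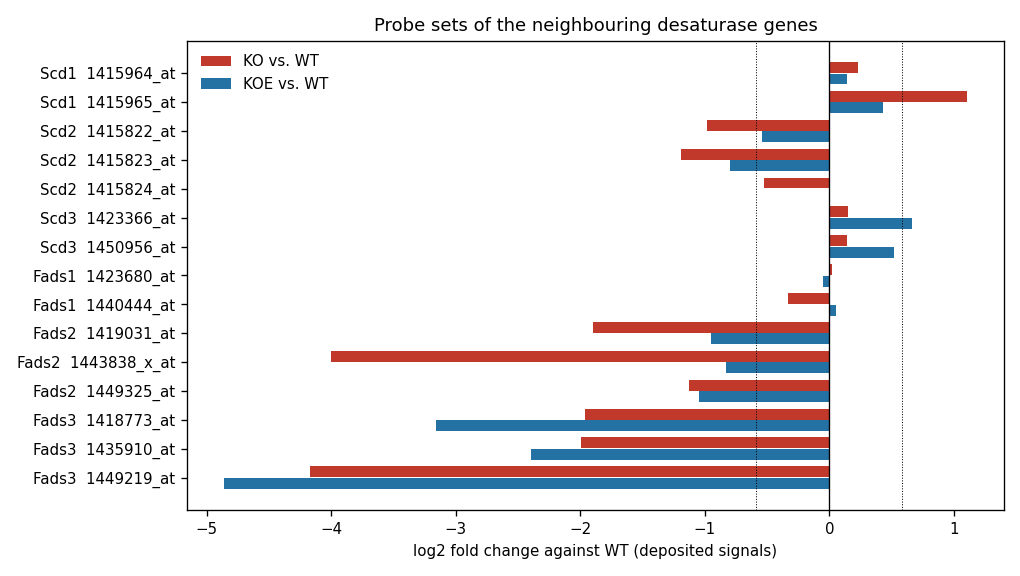
Log2 fold change against WT of each probe set of the Scd and Fads genes, red for KO and blue for KOE, with dotted lines at 1.5-fold. Both comparisons share the WT array. Scd2, Fads2 and Fads3 lie to the left in KO, with −0.98, −1.90 and −1.96 at the strongest probe sets, and Scd1 and Scd3 to the right.

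The wider lipid pathways that feed the gland were read from lists of genes chosen with earlier results of these data known. Of 15 measured genes of fatty acid synthesis, 1 was higher and 1 was lower in KO vs. WT, with a median log2 fold change of 0.02. Acsl5, an acyl-CoA synthetase, gave signals of 10379, 11157 and 11329.6 in WT, KO and KOE. Acly, which makes cytosolic acetyl-CoA, had 7591, 8627 and 8662. Me1, which supplies NADPH for lipid synthesis, was 1.64-fold higher in KO, and Thrsp, a regulator of lipogenesis in fat and liver, had 251 in WT, 85.7 in KO and 326 in KOE. Thrsp was also the single gene of this list past the cut-off in KOE vs. KO, with a log2 fold change of 1.93. Acsl4, an acyl-CoA synthetase for polyunsaturated fatty acids, had the next largest difference, with 0.31.

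Of 16 measured other desaturases and elongation enzymes, 2 were higher and 2 were lower in KO, with a median of 0.04, and 1 was lower and none was higher in KOE than in KO. The strongest were Elovl4 and Elovl5, elongases of very long chain and polyunsaturated fatty acids, with ratios of KO to WT of 1.04 and 1.05. In KOE vs. KO the largest log2 fold change after Fads3 was that of Degs2, a ceramide-modifying desaturase, with −0.49. Those higher in KO were Degs1, the dihydroceramide desaturase, with 3869 in WT and 6599 in KO, and Elovl1, an elongase of saturated fatty acids, with 5831 and 9872. Of 14 measured other wax ester and neutral lipid enzymes, 2 were higher and 3 were lower in KO at a median of −0.07. Dgat2, which makes triglycerides and belongs to the family of Awat1, Awat2 and Dgat2l6, had 3565 in WT, 6093 in KO and 5479.7 in KOE, a ratio of KO to WT of 1.71. Mogat1, another member of this family, had 57.8, 28.7 and 4.22, and Lpin3, a phosphatidate phosphatase, 464, 246 and 297. Gpam, which starts glycerolipid synthesis, was 1.15-fold that in WT, and Agpat2, an acyltransferase of this route, was 1.31-fold that in KO in the KOE pool. Far1, the second fatty acyl-CoA reductase, had 1667, 1630.0 and 1605 and so, like Far2, was not past the cut-off. Agpat3, an acyltransferase of glycerolipids, was 1.53-fold higher in KO than in WT and 1.67-fold lower in KOE than in KO.

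Of 18 measured genes of cholesterol synthesis, which feeds the sterol esters of sebum, 1 was higher in KO than in WT at a list median of 0.20 (log2 fold change), none was lower, and none was past the cut-off in KOE vs. KO. Hmgcs1, the synthase of the mevalonate route, had 11806, 14192 and 14114 in WT, KO and KOE. Msmo1, a methylsterol monooxygenase, had 12603, 12745 and 13449. The gene past the cut-off was Fdps, the farnesyl diphosphate synthase, with a ratio of KO to WT of 1.51. After median scaling 5 genes of the list were higher, and after quantile or cyclic loess normalization 0 were, with 1 lower after the latter. Dhcr7, the last reductase of the route, followed with 1.46. In KOE vs. KO the largest log2 fold changes were 0.56 for Lss, the lanosterol synthase, and 0.55 for Hsd17b7, a sterol reductase.

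Of 15 measured regulators and receptors of the gland, 1 was higher and 2 were lower in KO vs. WT. Cebpb, a transcription factor, had 8046, 8054 and 8196, and Fgfr2, a fibroblast growth factor receptor, had 2294, 3364 and 3364. Those lower were both genes of melanocortin signaling. Mc1r, the melanocortin receptor of pigment cells, had 248 in WT, 19.2 in KO and 110.4 in KOE. Mrap, an accessory protein of melanocortin receptors that fat cells also make, had 56.0, 11.7 and 115. Their signals in KO are under 40, and both exceeded the cut-off in KOE vs. KO, in the other direction. Mc5r, the receptor of the sebocyte, differed less, with its log2 fold change of −0.52 in KO vs. WT and 0.56 in KOE vs. KO.

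The values of other cell types are given beside these because fat cells also express Scd1, Scd2, Fads2 and Thrsp. Of 12 measured adipocyte markers, 8 were past the cut-off as lower and 1 as higher in KO vs. WT, and 9 were higher and none was lower in KOE than in KO. Their summed signal was 39942 in WT, 11731 in KO and 30301 in KOE. Fabp4, a fatty acid carrier, had 15268, 4731 and 9406, and Car3, a carbonic anhydrase of fat and muscle, had 14062, 2832 and 13210.4. These pools thus lie in the same order as for Fads2 and Scd2 at their strongest probe sets, with WT highest and KO lowest. At theirs, Scd1 was lowest in WT and highest in KO, and Thrsp was lowest in KO and highest in KOE. Of 19 measured hair shaft and inner root sheath markers, 18 had lower signals in KO past the cut-off, and their summed signal was 228991, 3304 and 2413. Tchh, the trichohyalin of the inner root sheath, had 24309, 279 and 278, and Krt32, a hair keratin, 2323, 1631 and 831. In KOE vs. KO the median of these 19 markers was −0.03, with 6 lower past the cut-off and none higher. All of these 6 but Krt32 had KOE signals under 40, and with signals under 40 set to 40 the median was 0. Of 14 skeletal muscle markers, 12 had lower signals in KO past the cut-off and 13 were higher in KOE than in KO. Acta1, skeletal actin, had 5093, 2497 and 9799, and Tnnc2, a fast troponin, 4947, 1259 and 6291. The part of these cells in the values of the 6 genes was not tested.

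Epidermal and dermal genes gave a further comparison. None of 12 epidermal keratinocyte markers was past the cut-off in KO vs. WT, with a median log2 fold change of 0.29, and 2 of 10 dermal fibroblast markers were lower and none was higher. The strongest of the latter, the matrix genes Dcn and Col3a1, had ratios of KO to WT of 0.981 and 0.682. Krt10, a keratin of the upper epidermis, had 29571, 33694 and 36463, and Krtdap, a keratinocyte differentiation protein, had 27489, 34438 and 33049.6. Of 16 measured genes of epidermal barrier lipids, which the epidermis makes apart from sebum, 4 were higher and none was lower in KO than in WT, with a median of 0.22, and none was past the cut-off in KOE vs. KO. The list medians in KO vs. WT were 0.15 for the sebum genes, 0.16 for the sebocyte markers, 0.29 for the keratinocyte markers, 0.22 for the barrier lipid genes and −0.22 for the dermal fibroblast markers. After cyclic loess normalization these were −0.00, 0.02, 0.10, 0.23 and −0.40. After scaling to a common median they were 0.42, 0.43, 0.56, 0.49 and 0.04, so the sign of the fibroblast median depended on the scaling. The hair, muscle and adipocyte markers had medians of −7.35, −1.74 and −1.70. A test of these differences between lists could not be made with 1 array per group.

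**Figure D3:**
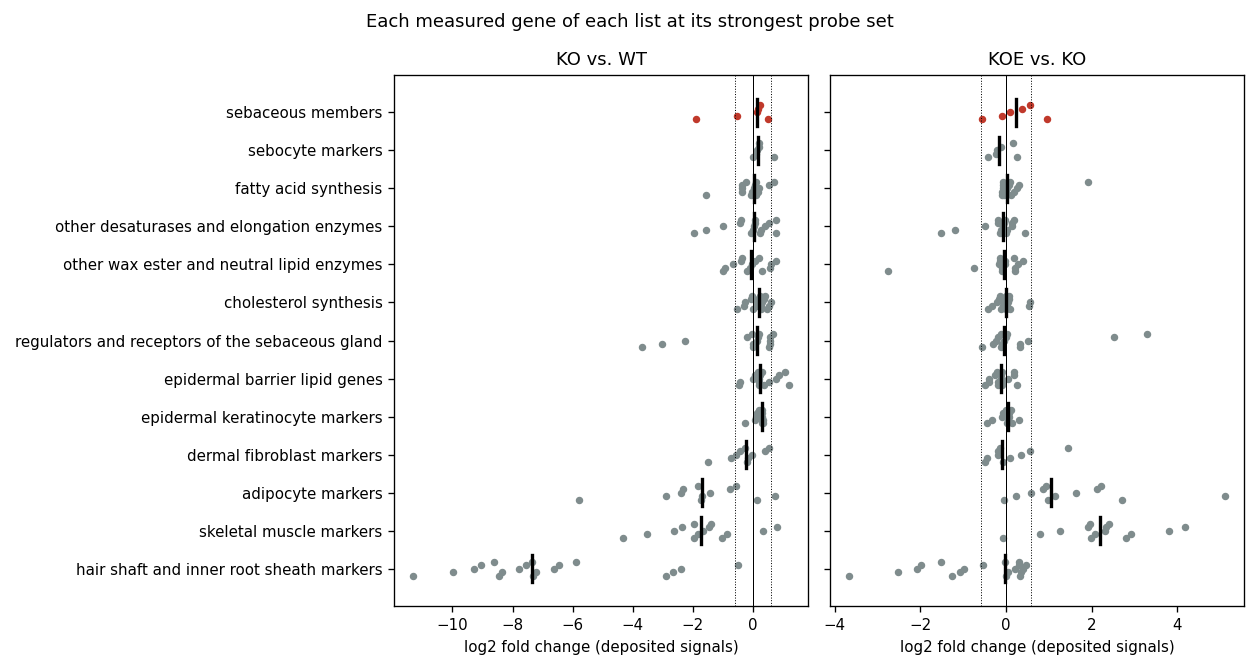
Points give the log2 fold changes of the sebum genes (red) and of 12 other lists (grey), in a left panel for KO vs. WT and a right one for KOE vs. KO, with black bars at the medians and dotted lines at 1.5-fold. Genes under 40 in both arrays are drawn but were not counted as past the cut-off. Axis ranges differ between panels. The sebum genes have medians of 0.15 and 0.23, and the sebocyte markers have 0.16 and −0.16. The hair list has the lowest median in KO vs. WT, −7.35.

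Genes with the most similar pattern were sought over the 3 arrays by the distance of their log2 fold changes against WT, in KO and in KOE, from the medians of the 6 genes. Among 12886 genes with at least 40 in all arrays, the 5 nearest were Ces2g, Zfp959, Bnipl, Zfp52 and Ube2g1, at distances of 0.0031 to 0.0044. Bnipl, for example, gave 2385 in WT, 2648 in KO and 2535 in KOE. A distance of at most 0.1 was found for 916 genes, and the distance is to a pair of medians over genes that differ in both directions. It describes no single gene of the 6, and the KOE vs. KO median of 0.23 did not enter it.

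**Figure D4:**
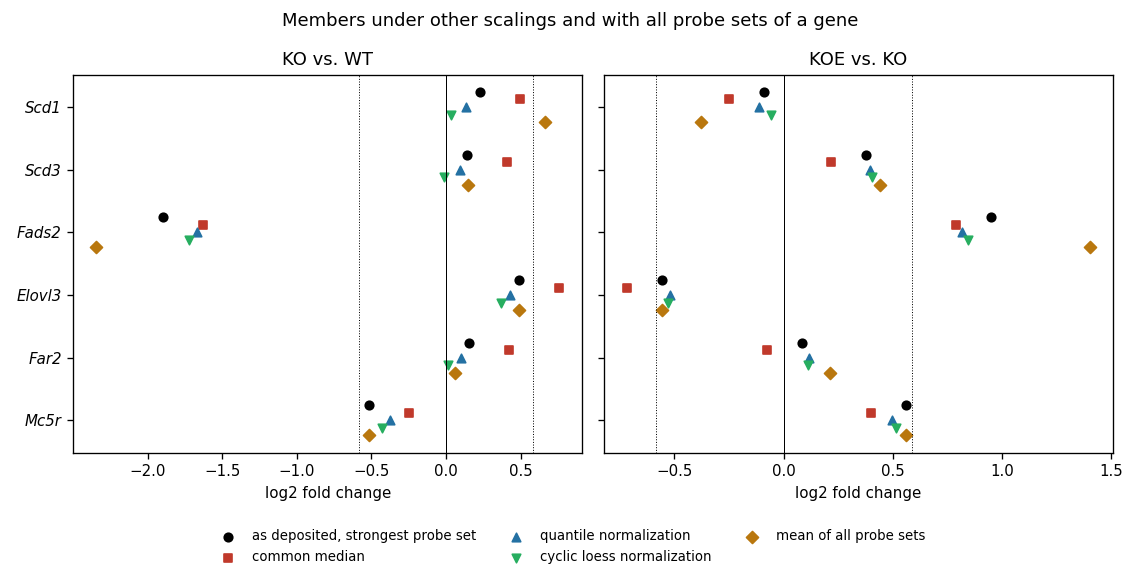
Log2 fold change of the 6 genes, in a left panel for KO vs. WT and a right one for KOE vs. KO, as deposited, under 3 other scalings and with all probe sets of a gene averaged, with dotted lines at 1.5-fold. Fads2 is past the dotted line in each, from −2.34 to −1.63 in KO vs. WT. Elovl3 crosses it after median scaling, and Scd1 in KO vs. WT, with 0.67, when all probe sets are averaged.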

How the data were processed

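RNA of mouse back skin, 250 ng of each pool, was measured by the authors on 3 Affymetrix mouse genome arrays. The authors made signal intensities on a linear scale with the Affymetrix Microarray Analysis Suite and R before they were deposited, and the 2% trimmed mean was checked to be 500 on each array. Detection calls and raw images were not analysed here, so whether a low signal was detected at all is not known. A single array per group limits the precision. Of 45101 probe sets, 64 controls were left out. Of the others, 34945 have 1 gene in the platform annotation, 932 have several and 9160 are unnamed here.

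A gene was read at its probe set with the highest mean log2 signal among those with 1 gene name. The deposited signals were divided without more scaling, KO by WT and KOE by KO and by WT, and no p-value was computed. The fold limit of 1.5 and the signal limit of 40 are those of the study's methods, which leave unsaid in which array 40 must be reached. The 10 genes and the 12 lists were chosen with earlier results of these data known. Named genes are the 10 genes, the 2 strongest of each list of a pathway or cell type, the 2 with the largest differences of each pathway list in KO vs. WT and in KOE vs. KO, further genes of the stearoyl-CoA desaturase and DGAT2 families, the 5 genes of nearest pattern, and Il10. Others (the sebocyte markers beside the 2 strongest, Ucp1, Fads1, Degs1, Elovl1 and Far1) were named after their values were seen. Alternatives changed the scaling, signal limit, offset, fold limit and the joining of probe sets, as in the last section. The procedure was run on simulated arrays whose changes were well past the cut-off and whose noise was below the technical spread given above. That run checks the code and not the precision. Python 3.11.15, numpy 2.4.6, pandas 2.3.3, matplotlib 3.10.9, R 4.3.3 and limma 3.58.1 (cyclic loess, span 0.7, 3 iterations) were used.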

Additional observations from a re-analysis of the deposited data

How the results depend on the processing

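The direction of Fads2 in each comparison was the same under each of the 13 alternatives tried. Its side of the cut-off was also the same, except with a 2-fold limit. With that limit it was not past it in KOE vs. KO or KOE vs. WT, which leaves 0 genes higher and 0 lower there. Its log2 fold change differed from the deposited one only with the other scalings, the offset and the mean of all probe sets. The remaining alternatives repeated the deposited value, so they are no separate check of its direction. No alternative read 1449325_at alone, where KOE was 1.06 times KO and not past the cut-off. Both comparisons with WT were past it at that probe set. The log2 fold change of Fads2 ranged from −2.34 to −1.52 in KO vs. WT and from 0.71 to 1.40 in KOE vs. KO. After median scaling, Elovl3 gave 1 gene higher in KO vs. WT and 1 lower in KOE vs. KO, and Scd3 gave 1 higher in KOE vs. WT. With the mean of all probe sets or the median of their fold changes, Scd1 gave 1 gene higher in KO vs. WT and Scd3 gave 1 higher in KOE vs. WT, since each gene has a probe set with a larger difference than its strongest. The other 69 of 78 counts of the 6 genes were the same within 1.5 times, and their median log2 fold change ranged from −0.00 to 0.42 in KO vs. WT, from 0.07 to 0.33 in KOE vs. KO and from 0.03 to 0.20 in KOE vs. WT. The lowest of these, after cyclic loess in KO vs. WT, lies just below 0. Over all genes, those higher in KO than in WT numbered 1573 as deposited, 3369 after median scaling, 2756 without a signal limit and 618 with a 2-fold limit. Those lower were 2086, 1276, 3333 and 1106. In KOE vs. KO, of the genes past the cut-off 67.0% were higher as deposited, and scaling by median, quantile or cyclic loess made this 46.7%, 49.2% and 48.5%. Of the counts of the other lists, 75 of 576 moved by more than 1.5 times. No paired analysis was possible because each group has 1 array, and no array could be left out. Scd1 in KOE vs. WT turned to −0.03 after cyclic loess and Elovl3 to 0.04 after median scaling. Fads2 has the weakest signals of the 6 genes, in the range where probe sets of 1 gene differ most (SD 0.49 in KO vs. WT).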
